A study of Mus musculus with 12 samples.

Results

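The balanced expanded clones of 6 recipient mice of the transfer colitis model were examined. These are T cell receptor (TCR) beta chain clonotypes that held at least 0.1% of the TCR molecules in both the spleen and the mesenteric lymph node (mLN) of a mouse, with the larger share less than 4 times the smaller. A clonotype was 1 nucleotide sequence of the complementarity-determining region 3 (CDR3), and its share was its number of unique molecular identifiers (UMIs, 1 for each captured RNA molecule) divided by the total of the library. The clonotypes were chosen by these shares in both organs, so the comparison of the organs is a description without a test. The rule does not use the genotype, and only genotypes and properties outside the rule were tested. By this rule 668 clonotypes were balanced, of 1389 that reached 0.1% in at least 1 organ (called expanded) and of 105043 clonotypes in all, where a sequence seen in several mice counts once in each.

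TCR beta libraries were made from CD4+ T cells of mLN and spleen in Rag2-/- recipients, which lack B and T cells of their own, 6 weeks after transfer of naive CD4+ T cells. The donors were C57BL/6 mice, either PRKAA1fl/fl (WT) or CD4-Cre PRKAA1fl/fl (KO), so both groups carried the floxed allele of the gene for AMPKα1 and only the KO donors the Cre, which is driven by the CD4 promoter and acts from the thymocyte stage on. The methods give an age of 6 to 8 weeks for mice unless stated otherwise. In the paper's colitis experiments, recipients of WT cells lost weight and had heavy T cell infiltration. Recipients of KO cells kept their weight and showed mild inflammation. Genotype, severity of disease and number of T cells therefore cannot be told apart here. There were 3 mice per genotype (WT replicates 1, 3 and 4, KO replicates 1, 2 and 3) with 1 library per organ, and spleen and mLN libraries that carry 1 genotype and number were treated as coming from the same animal. TCR libraries hold neither Prkaa1 nor cell type markers, so neither the deletion nor the labelled cell type could be checked in them.

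The beta chain gene is assembled in the thymus by joining a V, a D and a J segment, and the CDR3 spans the join, where bases are trimmed from the segments and others are added without a template. A CDR3 nucleotide sequence therefore marks the descendants of 1 rearranged T cell, apart from sequences that arise more than once independently. The spleen filters the blood, whereas the mLN drains the intestine, the site of inflammation in transfer colitis. A share of RNA molecules depends on the number of cells and on the TCR RNA in each, and fewer cells and less RNA per cell cannot be told apart here.

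The largest balanced clonotype of each mouse by its mean share over the organs is shown with its CDR3 from the first conserved cysteine codon on, written 5′ to 3′ on the coding strand. Capitals mark the bases between the end of the V match and the start of the J match, the part that is not set by the V and J segments. Names give the mouse and the rank among its balanced clonotypes.
WT1-1 (TRBV1, TRBJ2-1): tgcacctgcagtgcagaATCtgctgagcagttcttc
WT3-1 (TRBV13-2, TRBJ2-4): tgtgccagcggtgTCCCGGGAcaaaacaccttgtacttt
WT4-1 (TRBV3, TRBJ1-1): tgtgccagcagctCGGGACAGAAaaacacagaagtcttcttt
KO1-1 (TRBV5, TRBJ2-3): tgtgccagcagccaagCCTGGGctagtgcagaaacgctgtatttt
KO2-1 (TRBV1, TRBJ1-1): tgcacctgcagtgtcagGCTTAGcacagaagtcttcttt
KO3-1 (TRBV26, TRBJ2-1): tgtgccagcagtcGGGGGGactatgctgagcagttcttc

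Library totals ranged from 2488 to 493287 UMIs, so that 0.1% corresponded to between 3 and 494 UMIs. The smallest library by far was KO replicate 3 mLN, where 31 of the 64 balanced clonotypes rested on fewer than 10 UMIs and the floor of 3 counts lay at 0.121%. In the other mice no balanced clonotype had fewer than 10 UMIs in mLN. Clonotypes of 1 UMI made up 31.0% to 41.8% of clonotypes in 5 libraries (both of WT replicate 1, both of KO replicate 1 and KO replicate 3 mLN), which were also the 5 smallest, and 66.5% to 84.2% in the other 7. Differences between genotypes are given also without KO replicate 3 and within these kinds of library.

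Balanced clonotypes numbered 109, 134 and 133 in WT replicates 1, 3 and 4, and 107, 121 and 64 in KO replicates 1, 2 and 3. They made up 50.5%, 60.9% and 53.8% of the expanded clonotypes in WT and 52.7%, 48.4% and 25.3% in KO. Apart from KO replicate 3, which stood far below, the mice thus had between 0.938 and 1.56 balanced clonotypes for each other expanded one. Of the other 721 expanded clonotypes, 375 also stayed under 4 times but fell below 0.1% in 1 organ, 206 were at least 4 times more frequent in spleen and 140 at least 4 times more frequent in mLN. In KO replicate 3 these concentrated clonotypes numbered 92 and 58, against 16 to 37 and 2 to 22 in the other mice. When each library was reduced to 2488 UMIs, KO replicate 3 kept 60.5 balanced clonotypes on average over 50 draws, and the other mice 91.8 to 122.

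**Figure D1:**
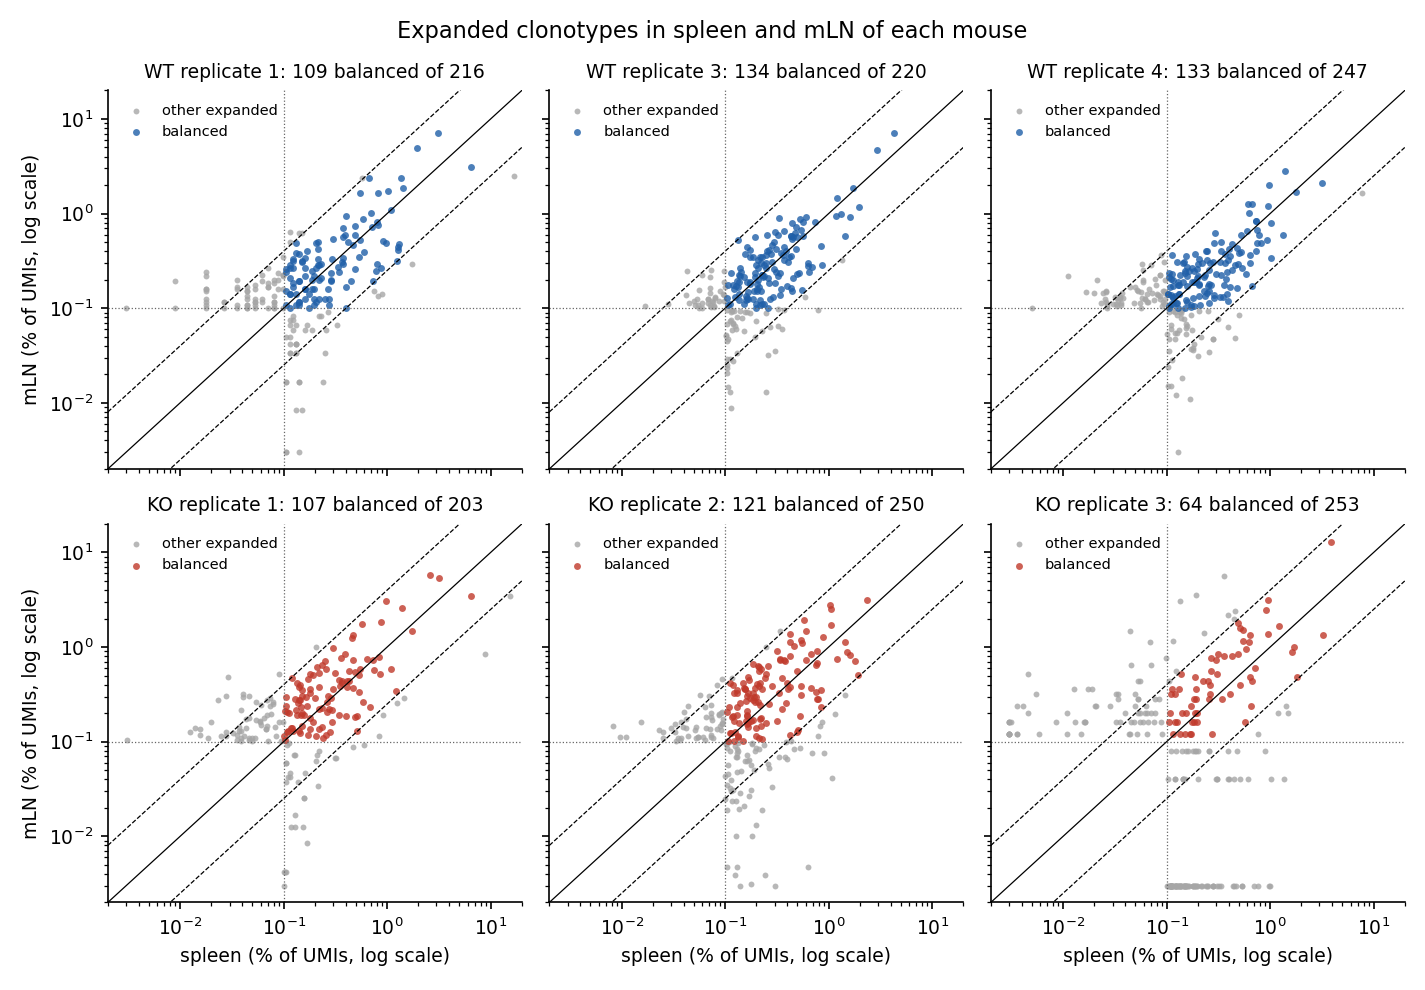
Share of each expanded clonotype in spleen (horizontal) and mLN (vertical) of the same mouse, as percent of UMIs on log scales, with 1 panel per mouse and values under 0.003% drawn at 0.003%. Colored points are balanced clonotypes (blue WT, red KO), grey points the other expanded clonotypes, dotted lines the 0.1% limit, dashed lines a ratio of 4 and the solid line equal shares. The steps in KO replicate 3 mLN are single UMIs of a library of 2488.

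Although few in number, the balanced clonotypes held between 33.0% and 60.7% of the TCR molecules of a library, which the 0.1% limit of the rule favors. The other expanded clonotypes held 12.7% to 37.2% of spleen and 8.48% to 43.1% of mLN UMIs. In the spleen of KO replicate 3 the others held more than the balanced ones, 36.6% against 33.0%. Balanced clonotypes took 52.1%, 54.8% and 48.6% of spleen UMIs in WT replicates 1, 3 and 4, and 47.5%, 48.7% and 33.0% in KO replicates 1, 2 and 3. Their part of the mLN was 58.9%, 58.5% and 46.7% for the WT mice and 60.7%, 60.2% and 51.6% for the KO mice. The mLN share exceeded the spleen share in 5 mice, and WT replicate 4 was the exception. The 10 largest balanced clonotypes alone accounted for 12.5% to 18.7% of spleen and 14.7% to 27.9% of mLN UMIs. The balanced share was spread over many clonotypes, since only 29 of the 668 reached 1% in both organs, 3 to 7 in each mouse.

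**Figure D2:**
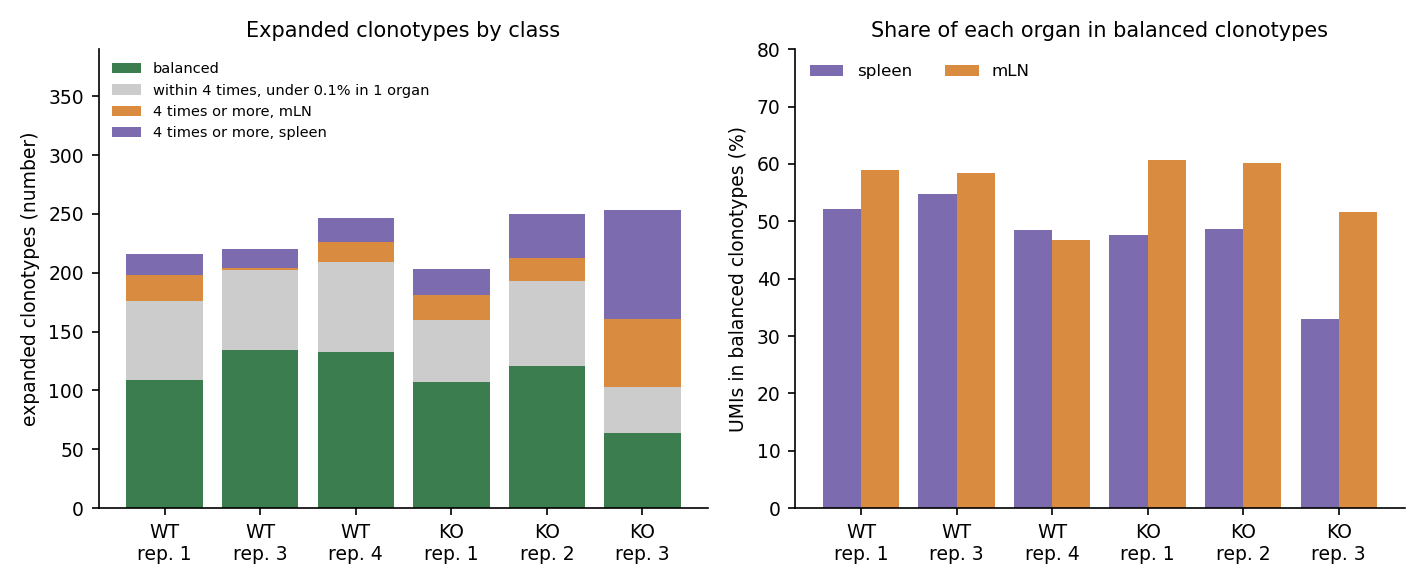
Left, number of expanded clonotypes per mouse, stacked by class, with balanced clonotypes at the base (109, 134 and 133 in WT, 107, 121 and 64 in KO). Right, percent of spleen and mLN UMIs that belonged to balanced clonotypes, 1 bar per library, between 33.0% and 60.7%. Each bar is 1 mouse or library, so there are no error bars.

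The most frequent clonotypes were mostly balanced in 5 mice, with KO replicate 3 as the exception. Of the 110 clonotypes at 1% or more in at least 1 organ 80 were balanced, 65 of 79 in the other mice and 15 of 31 in KO replicate 3. The top clonotype of the mLN was balanced in all 6 mice, whereas the top clonotype of the spleen was balanced in WT replicate 3, KO replicate 2 and KO replicate 3 only. Of the 10 most frequent clonotypes, 6 to 9 in spleen and 4 to 10 in mLN were balanced, with the lowest mLN value in KO replicate 3.

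WT1-1 held 3.12% of spleen UMIs (95% Wilson confidence interval 2.82 to 3.46%, 352 UMIs) and 7.02% of mLN UMIs (6.58 to 7.50%, 842 UMIs). WT3-1 held 4.33% (4.27 to 4.39%) and 7.18% (6.99 to 7.38%) and was the most frequent clonotype of both organs. WT4-1 leaned the other way, with 3.20% (3.15 to 3.25%) in spleen and 2.10% (2.02 to 2.19%) in mLN. These 3 WT clonotypes thus lay between 1.52 and 2.25 times apart, and in none did the counting intervals of the organs overlap. Here as elsewhere, intervals cover counting error only.

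Among KO mice, KO1-1 held 6.45% of spleen (6.26 to 6.64%) and 3.50% of mLN UMIs (3.27 to 3.74%). KO2-1 was the top clonotype of both organs at 2.37% (2.30 to 2.45%) and 3.13% (3.03 to 3.22%). KO3-1 was also the top clonotype of both, at 3.85% of spleen (3.77 to 3.93%) and 12.8% of mLN UMIs (11.5 to 14.2%, 318 UMIs). KO3-1 was therefore the largest balanced clonotype of the series and, at 3.32 times, the one among these 6 that came closest to the limit of 4.

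The other 2 of the 3 largest clonotypes in each mouse mostly leaned to the mLN. In KO replicate 1, KO1-2 (TRBV13-1) and KO1-3 (TRBV13-2) were 1.70 and 2.22 times as frequent in mLN as in spleen. In KO replicate 2, KO2-2 (TRBV15) and KO2-3 (TRBV1) were 2.66 and 2.40 times as frequent in mLN. KO3-2 (TRBV5) leaned to the spleen, 3.26% against 1.33% on 33 mLN UMIs, and KO3-3 (TRBV14) to the mLN, 3.14% against 0.955%. In WT replicate 1, both used TRBV16, with WT1-2 more frequent in spleen (6.41% against 3.14%) and WT1-3 in mLN (4.91% against 1.93%). The closest agreement was found in WT, where WT3-3 (TRBV16) had 1.74% and 1.85%, and WT4-3 (TRBV17) 1.79% and 1.68%, each pair with overlapping intervals.

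Over all members, 387 were more frequent in mLN and 281 in spleen. The median log2 ratio of mLN to spleen share was 0.09, 0.07 and −0.01 in WT replicates 1, 3 and 4, and 0.25, 0.40 and 0.54 in KO replicates 1, 2 and 3. The 3 KO medians lay above the 3 WT medians. This was not among the measures tested, and the ratio is built from the shares that chose the members. In KO replicate 3, which had the highest median, 31 of the 64 members rested on fewer than 10 mLN UMIs. In each organ pair, 62.5% to 78.9% of the members differed by less than 2-fold, 468 of 668 in total. Within a mouse, the shares of the members in the 2 organs correlated at a Spearman's rho of 0.59 to 0.73, over 64 to 134 clonotypes that share the 2 libraries and were chosen for like shares.

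**Figure D3:**
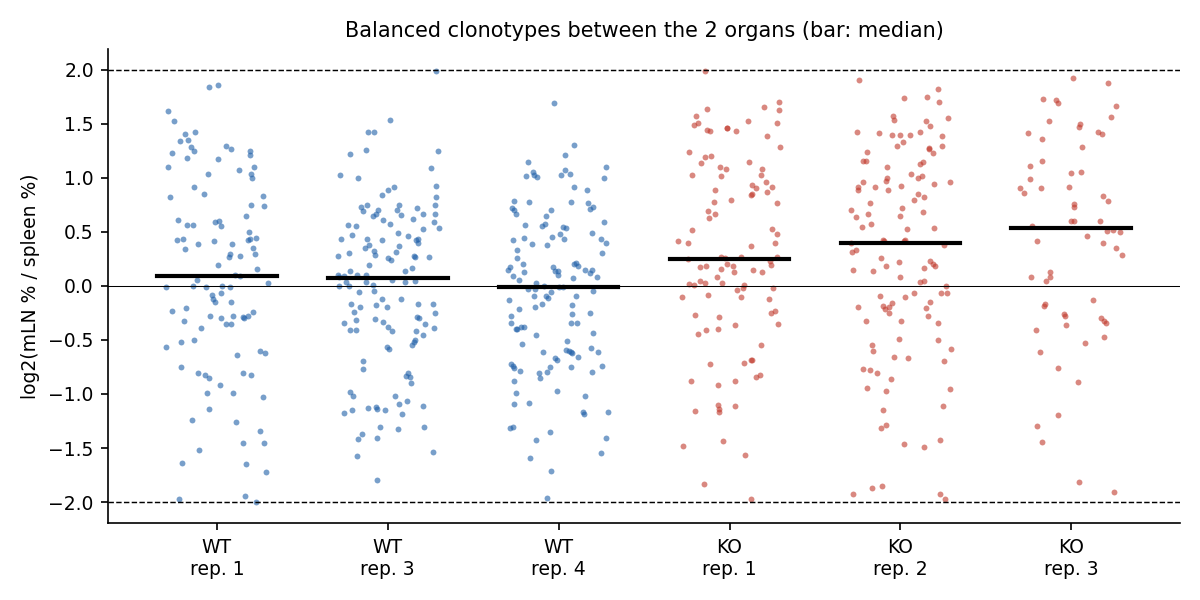
Log2 ratio of mLN to spleen share for each of the 668 balanced clonotypes, by mouse (blue WT, red KO), with horizontal jitter. Thick bars are medians, from −0.01 in WT replicate 4 to 0.54 in KO replicate 3, and dashed lines at −2 and 2 are the limits of the rule.

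Counting error was large enough to bear on single members. For 254 of the 668 clonotypes (38.0%) the 95% intervals of the organs overlapped, from 19.8% in KO replicate 2 to 67.9% in WT replicate 1, whose libraries held 11271 and 11987 UMIs. In 131 clonotypes (19.6%) the interval reached below 0.1% in at least 1 organ, from 10.4% in WT replicate 3 to 34.9% in WT replicate 1 and 31.3% in KO replicate 3. These shares were highest in the mice with small libraries.

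At the limits of the rule, WT1-59 (TRBV19, TRBJ2-5) was just inside both, with 0.399% in spleen, 0.1001% in mLN and a ratio of 3.99, on 45 and 12 UMIs. Just outside lay a TRBV13-2, TRBJ2-3 clonotype of KO replicate 2 at a ratio of 4.09 and a TRBV13-1, TRBJ1-3 clonotype of WT replicate 3 at 0.0999% in spleen. Of the 711 clonotypes at 0.1% or more in both organs, the ratio removed 43, between 1 in WT replicate 4 and 14 in KO replicate 3, so the 0.1% limit set the membership more than the ratio did.

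To ask whether loss of AMPKα1 altered this part of the repertoire, 6 measures were compared between WT and KO. The exact permutation test, two-sided, ran over the 20 ways to assign the animals to genotypes and cannot give a p below 0.1. WT mice had 125 ± 14.2 balanced clonotypes and KO mice 97.3 ± 29.7 (mean ± SD over 3 mice each, exact permutation p = 0.2, adjusted over the 6 measures 0.4). As percent of expanded clonotypes the values were 55.1 ± 5.33% and 42.1 ± 14.7% (exact permutation p = 0.2, adjusted 0.4). Both differences rested on KO replicate 3. Without it, the KO mean was 114 clonotypes and 50.6%, and the difference shrank from −28 to −11.3 clonotypes and from −12.9 to −4.52 percentage points. Within the kinds of library the number changed by −2.0 and −12.5 clonotypes. The percent of expanded clonotypes was 2.25 points higher in KO where 1-UMI clonotypes were few (1 mouse each) and changed by −8.98 points where they were many (2 WT mice and 1 KO mouse), with KO replicate 3 left out because its libraries were of both kinds.

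Balanced clonotypes held 51.8 ± 3.11% of the WT spleens and 43.1 ± 8.75% of the KO spleens (a change of −8.73 points, exact permutation p = 0.2, adjusted 0.4), and −3.69 points without KO replicate 3. It was lower in KO within both kinds of library, by −4.58 and −2.95 points. Of the mLN they held 54.7 ± 6.94% in WT mice against 57.5 ± 5.12% in KO mice (2.79 points more, exact permutation p = 0.5, adjusted 0.5), with 1.74 and 7.62 points within the kinds and 5.74 points without KO replicate 3. CDR3 length averaged 41.3 ± 0.278 nt in WT and 41.0 ± 0.466 nt in KO, and the gap between V and J 8.09 ± 0.252 and 8.49 ± 0.586 nt (exact permutation p = 0.5 and 0.4, adjusted 0.5 for both). Within the kinds the length differed by 0.03 and −0.94 nt and the gap by 0.51 and −0.22 nt. Leaving out KO replicate 3 moved the length difference from −0.31 to −0.53 nt and the gap difference from 0.41 to 0.08 nt. None of the 6 differences passed the test, which with 3 mice against 3 cannot reach 0.05.

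Nearly all balanced clonotypes could encode a beta chain. Of the 668, 646 were productive, meaning in frame and without a stop codon. Productive members were 24 to 51 nt long, with a median of 42 nt, which was also the most frequent length (209 clonotypes, 32.4%), followed by 39 nt (155) and 45 nt (134). Between the V and J matches lay a median of 8 nt, with quartiles of 6 and 11 nt. Only 17 had no base between them.

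Balanced clonotypes used 22 V and 12 J segments. All lie in the TCR beta locus on mouse chromosome 6, where the positions below are GRCm38 from the GENCODE annotation. The build of the V and J reference used by the authors is not given in the sources used here. The most frequent V segments were TRBV13-2 (chr6:41121396-41121832, 86 clonotypes), TRBV1 (chr6:40891229-40891885, 69), TRBV5 (chr6:41062332-41062803, 63), TRBV31 (chr6:41557691-41558452, 58), which lies downstream of the J segments on the minus strand, and TRBV3 (chr6:41048290-41048828, 56). Among the J segments TRBJ2-7 (chr6:41543810-41543856, 107), TRBJ2-1 (chr6:41542754-41542803, 80) and TRBJ2-5 (chr6:41543453-41543501, 80) led. No single segment was used by more than 22.3% of the balanced clonotypes of a mouse.

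TRBV1 was the only one of the 5 leading V segments that was more frequent among balanced than among other expanded clonotypes in all 6 mice. It was used by 8.26%, 11.2% and 15.0% of balanced clonotypes in WT replicates 1, 3 and 4 and by 11.2%, 7.44% and 6.25% in KO replicates 1, 2 and 3. Among the other expanded clonotypes of the same mice it was used by 4.67%, 9.30% and 4.39%, and by 7.29%, 6.98% and 5.29%. The means were 9.90 ± 3.22% and 6.32 ± 1.89% (SD, n = 6). TRBV13-2 was higher among balanced clonotypes in 5 mice (13.3 ± 3.19% against 9.60 ± 2.49%). TRBV5 (9.37 ± 2.73% against 9.54 ± 2.09%) and TRBV3 (8.17 ± 2.44% against 8.24 ± 0.706%) differed by less than the spread between mice. TRBV31 was the lower among balanced clonotypes, 8.71 ± 1.37% against 10.07 ± 2.85%, and higher in 2 of 6 mice. Among J segments, TRBJ2-7 took 15.8 ± 4.20% against 16.6 ± 2.85% and was higher in 1 of 6. TRBJ2-1 took 12.5 ± 5.01% against 10.5 ± 3.63% and TRBJ2-5 12.2 ± 2.80% against 11.5 ± 3.06%, each higher in 4 of 6. These single segments were not tested.

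Between genotypes, TRBJ2-5 took 14.4 ± 0.518% of balanced clonotypes in KO and 10.04 ± 2.33% in WT, and the 3 KO mice lay above the 3 WT mice. The difference of 4.31 points was 5.78 and 3.57 points within the kinds of library and 4.46 points without KO replicate 3. TRBJ1-5 (chr6:41535084-41535133) took 2.61 ± 1.01% in WT and 0.862 ± 0.829% in KO, again without overlap, but on 13 clonotypes in all. The difference of −1.75 points was −0.900 and −1.35 points within the kinds and −1.32 points without KO replicate 3. Among the 5 leading V segments, the 3 leading J segments, TRBV23 and TRBJ1-5, only TRBJ2-5 and TRBJ1-5 separated the genotypes in this way. Genotype differences in single segments were not tested. With 3 mice against 3 the exact permutation test cannot give a p below 0.1, so some of these segments can separate by chance. TRBV23 (chr6:41216073-41216526) was used by 8 balanced clonotypes, 5 of them in WT replicate 4. One of the others was WT3-2, the second clonotype of both organs of WT replicate 3, with 2.91% of spleen and 4.72% of mLN UMIs.

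**Figure D4:**
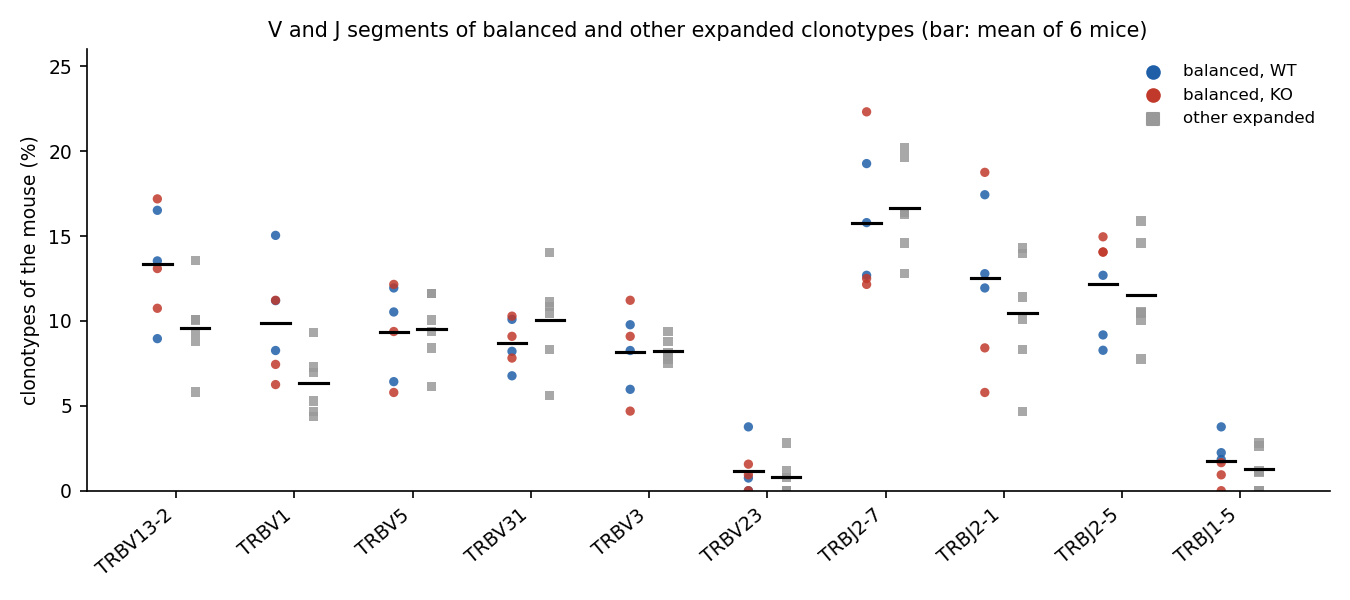
Percent of balanced clonotypes (circles, blue WT, red KO) and of other expanded clonotypes (grey squares) of each mouse that used the named V or J segment, with bars for the mean of 6 mice. TRBV1 lay at 9.90% against 6.32% and was higher among balanced clonotypes in every mouse.

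The D segment of the productive members was assigned as TRBD1 in 272 and TRBD2 in 177, and not assigned in 197. TRBD2 lies between the TRBJ1 and TRBJ2 clusters, so that it joins TRBJ2 segments by deletion of the DNA between them. Of the 177 with TRBD2, 168 had a TRBJ2 segment, whereas the 272 with TRBD1 were divided evenly, 136 with TRBJ1 and 136 with TRBJ2. The other 9 with TRBD2 were assigned a TRBJ1 segment.

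To see what balanced clonotypes share that the rule did not use, 8 properties were compared with the other expanded clonotypes of the same mouse by two-sided exact sign-flip tests (permutation of signs over 64 patterns, n = 6 mice), in which the smallest possible p is 0.031 and, if 3 properties reach it, the smallest adjusted value is 0.0833. The share of productive clonotypes was 96.7 ± 1.004% among balanced and 93.5 ± 2.92% among other expanded clonotypes, higher in 6 of 6 mice (difference 3.20 points, exact p = 0.031, adjusted 0.0833, which does not pass 0.05). The difference ranged from 0.627 to 9.98 points and was largest in KO replicate 2. It was 1.85 points without that mouse and −0.161 points among clonotypes selected at 0.2%. Against other expanded clonotypes with a mean share of 0.1% or more it was 0.814 points.

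Length and segment use gave smaller or mixed differences. The mean CDR3 length was 41.2 ± 0.382 against 41.6 ± 0.354 nt, shorter among balanced clonotypes in 5 of 6 mice (difference −0.47, exact permutation p = 0.156, adjusted 0.3125), and the V to J gap 8.29 ± 0.461 against 8.84 ± 0.524 nt, also smaller in 5 of 6 (−0.55, exact permutation p = 0.219, adjusted 0.35). TRBV13 family segments were used by 25.1 ± 5.80% against 22.5 ± 2.92% and TRBJ2 segments by 66.5 ± 3.41% against 65.8 ± 1.92%, each higher in 3 of 6 mice (exact permutation p = 0.5 and 0.719, adjusted 0.571 and 0.719). Without the germline TRBJ2-1 sequence described below, the length difference was −0.228 nt and the gap difference −0.446 nt. Among productive clonotypes only they were −0.186 and −0.460 nt. The TRBV13 difference was 2.59 points with and 0.0476 points without KO replicate 3. These differences did not pass the test.

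A productive clonotype was called convergent when another nucleotide sequence of the same mouse encoded the same amino acids. This held for 24.3 ± 18.7% of balanced and 20.9 ± 13.5% of other expanded clonotypes (exact permutation p = 0.375, adjusted 0.5). The balanced convergent clonotypes numbered 2, 36 and 57 in WT replicates 1, 3 and 4 and 2, 50 and 17 in KO replicates 1, 2 and 3, lowest in the mice with the fewest clonotypes. In 158 of the 164 a partner lay at least 2 bases away. No partner itself reached 0.1%.

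Presence in another mouse differed most, although it too did not pass 0.05 after adjustment. The same nucleotide sequence had at least 1 UMI in another mouse for 61.8 ± 15.0% of balanced and 30.5 ± 15.2% of other expanded clonotypes (difference 31.3 points, higher in 6 of 6 mice, exact permutation p = 0.031, adjusted 0.0833). By amino acid sequence the values were 68.5 ± 13.9% and 40.4 ± 14.2% (difference 28.0 points, 6 of 6 mice, exact permutation p = 0.031, adjusted 0.0833). The per-mouse percentages for nucleotide sequences were 67.0%, 57.5% and 60.2% in WT replicates 1, 3 and 4 and 63.6%, 38.0% and 84.4% in KO replicates 1, 2 and 3, each above the value for the other expanded clonotypes of the same mouse, which ranged from 14.0% to 58.7%.

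These findings in other mice were mostly traces. Of the 398 balanced clonotypes with the same sequence elsewhere, 373 had at most 10 UMIs in each library of the other mice. In the library where their share was highest, 25 reached 0.01%. This held least for KO replicate 3, where 39 of 54 had at most 10 UMIs and which supplied 14 of the 25. At a fixed 0.01% in another mouse, 25 of 668 balanced and 15 of 721 other expanded clonotypes remained. An alternative added after the data were seen required presence elsewhere at 1% or more of the clonotype's own mean share. It was met by 12.5 ± 19.3% of balanced and 11.3 ± 14.7% of other expanded clonotypes (difference 1.19 points, higher in 2 of 6 mice, exact permutation p = 0.844). This bar rises with own share, which the rule favors in balanced clonotypes. It was therefore stricter for them and cannot show whether the difference in presence is absent. With amino acid matches limited to a different nucleotide sequence, also added later, the values were 22.1 ± 8.67% and 15.7 ± 3.42% (difference 6.40 points, 4 of 6 mice, exact permutation p = 0.125). With all libraries reduced to 2488 UMIs the difference was 3.55 points for nucleotide and 3.34 points for amino acid sequences (exact permutation, adjusted p = 0.125 for both). Libraries of fewer UMIs hold fewer traces of either set, so these points are not on the scale of the full libraries. Against only those other expanded clonotypes with a mean share of 0.1% or more, it was 22.9 points by nucleotide and 20.004 points by amino acid sequence.

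Among balanced clonotypes, own share and genotype both moved with presence elsewhere. In every mouse the members found elsewhere had a higher median mean share (0.302% to 0.526%) than those not found (0.175% to 0.259%). Balanced clonotypes also had a higher median mean share (0.230% to 0.340%) than other expanded ones (0.0970% to 0.108%). The rule favors this second difference, because it asks for 0.1% in both organs. For 357 of the 398 (89.7%) the library with the highest share belonged to a mouse of the same genotype, although each mouse has 2 others of its own genotype and 3 of the other. For KO replicate 3 it was the KO replicate 2 mLN in 51 of 54 clonotypes, and for WT replicate 4 the WT replicate 3 mLN in 58 of 80. The genotype of the library with the highest share is given for balanced clonotypes only, so whether other clonotypes differ in this is not known. Beyond the comparators above, the part of own share, library and genotype in these traces was not tested.

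**Figure D5:**
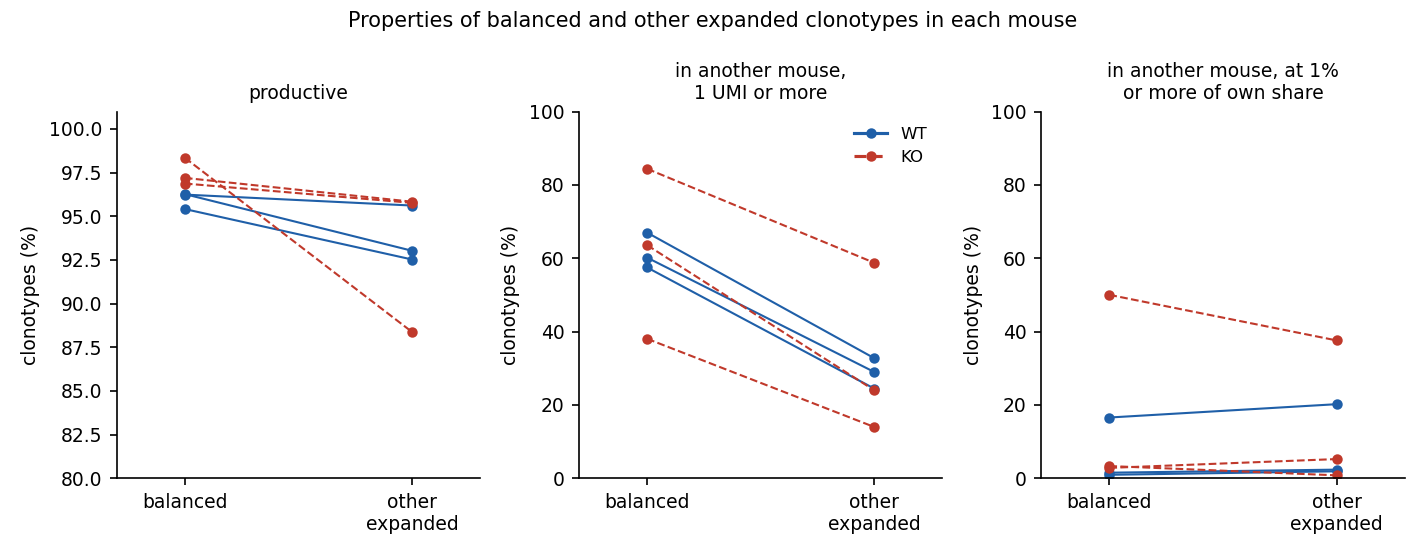
Percent of balanced and of other expanded clonotypes in each mouse (1 line per mouse, solid blue WT, dashed red KO) that were productive (left, axis from 80%), that had the same nucleotide sequence with at least 1 UMI in another mouse (middle), and that had it there at 1% or more of their own share (right). The difference was 31.3 points in the middle panel and 1.19 points in the right one. The bar of the right panel rises with own share and was stricter for balanced clonotypes, whose median share was higher.

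As members, only a few sequences recurred. Apart from 1 germline sequence described next, 1 nucleotide sequence was balanced in more than 1 mouse, WT4-1, shown above, which had 3.20% and 2.10% in WT replicate 4 and was also KO1-59 with 0.264% of spleen (171 UMIs) and 0.265% of mLN UMIs (63 UMIs) in KO replicate 1. A further 2 amino acid sequences were balanced in a pair of mice through different nucleotide sequences. They are shown because the differing bases lie in and around the capitals.
WT1-68 (TRBV5, TRBJ2-7): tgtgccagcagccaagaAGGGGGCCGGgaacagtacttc
KO2-81 (TRBV5, TRBJ2-7): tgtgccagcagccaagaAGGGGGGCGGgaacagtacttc
WT1-109 (TRBV14, TRBJ2-3): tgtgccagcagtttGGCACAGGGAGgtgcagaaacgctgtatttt
WT4-99 (TRBV3, TRBJ2-3): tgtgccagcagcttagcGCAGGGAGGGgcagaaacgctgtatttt

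The first pair encoded 13 residues and differed by 1 base. WT1-68 had 0.231% of spleen and 0.209% of mLN UMIs in WT replicate 1, and KO2-81 0.217% and 0.247% in KO replicate 2. The second pair encoded 15 residues with 4 bases different and from different V segments. WT1-109 had 0.106% and 0.108% on 12 and 13 UMIs, and WT4-99 0.207% and 0.135%. The first pair joined a WT and a KO mouse and the second joined 2 WT mice.

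One sequence was balanced in all 6 mice, although it holds no junction. It was assigned TRBV4 and TRBJ2-1, was out of frame at 16 nt, and is shown because each of its bases lies inside germline TRBJ2-1, at chr6:41542760-41542775 on the plus strand (GRCm38), in the single exon of that segment.
germline TRBJ2-1 match: tgctgagcagttcttc
The same letters end the CDR3 of WT1-1 and KO3-1, which use TRBJ2-1. The sequence held 0.417% of spleen and 0.501% of mLN UMIs in WT replicate 1, 0.258% and 0.210% in WT replicate 3, and 0.204% and 0.331% in WT replicate 4. In KO replicates 1, 2 and 3 it held 0.122% and 0.139%, 0.196% and 0.372%, and 0.361% and 0.804%. The ratio between the organs was 1.14 to 2.23. Without it, an alternative added after the data were seen, there were 662 balanced clonotypes and the difference in productive clonotypes was 4.14 points.

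The other 16 non-productive members were all out of frame as well, 4 in each WT mouse and 2, 1 and 1 in KO replicates 1, 2 and 3. Such a rearrangement makes no receptor chain, and in a T cell it accompanies a productive rearrangement on the other chromosome. Their mean shares were at most 0.473%, reached by WT3-29, which used TRBV24 (chr6:41218091-41218557, annotated as a V pseudogene), with 0.302% of spleen and 0.643% of mLN UMIs. TRBV31, TRBV15 and TRBV4 were used by 3 each of the 16.

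Within a mouse, 2 pairs of balanced clonotypes differed by 1 base. In WT replicate 4 a TRBV13-2 clonotype (WT4-2) had 1.38% of spleen and 2.82% of mLN UMIs, and a TRBV13-1 clonotype with the same TRBJ1-2 had 0.290% and 0.624%, so that both leaned to the mLN to a like degree. In KO replicate 2 the pair used TRBV26 and TRBJ2-5, with 0.168% and 0.329%, and 0.139% and 0.256%. TRBV13-1 and TRBV13-2 are close relatives, and whether a pair is 1 clone or 2 was not tested. The pairs were named after their values were seen.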

How the data were processed

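TCR beta libraries of 6 mice, 2 organs each, were analyzed. According to the study's methods, the authors primed cDNA in the constant region, added UMIs by 5′ RACE, collapsed UMIs with MIGEC and called clonotypes with MiXCR, whose V and J reference is not given in the sources used here. Before their own analysis they brought all libraries to an equal number of UMIs with VDJtools. The deposited counts used here are not equalized, with totals from 2488 to 493287 UMIs. Each clonotype has a deposited count, always whole, which was read as UMIs. The deposited clone fraction equals the count divided by the library total and served only to check the totals. Errors left by UMI collapse or clonotype assembly could not be redone here and would add rare sequences near frequent ones.

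Counts were summed per CDR3 nucleotide sequence and divided by the library total, without downsampling, and the rule was applied per mouse in Python 3.11.15 with pandas 2.3.3, numpy 2.4.6 and scipy 1.17.1. Tests were two-sided exact permutation tests with Benjamini-Hochberg adjustment over 6 genotype measures and over 8 properties. Classification and tests were tested on simulated data. Recovery of balanced clonotypes was required there for a deep mLN library only, not at the depth of KO replicate 3 mLN. Nothing states that the mice of a group are from separate transfers, so p-values measure the spread between these mice. Members, lists and tests were chosen with earlier results of these data known. Text names the 3 largest members per mouse, members shared between mice, those nearest the limits, the 5 leading V and 3 leading J segments, TRBV23 and TRBJ1-5. Alternatives were limits of 0.05% and 0.2%, ratios of 2 and 8, clonotypes defined with V and J segments, productive clonotypes only, removal of clonotypes of 1 UMI, merging of sequences 1 base from one at least 20 times larger, downsampling to 2488 UMIs over 50 draws, other comparators, omission of each mouse in turn and the replicate block.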

Additional observations from a re-analysis of the deposited data

Results flagged for a closer look

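Among the differences between balanced and other expanded clonotypes over the 6 mice, 2 values lay far from the rest by Dixon's criterion, which by chance singles out about 1 in 20 such groups, and 8 properties were examined. In KO replicate 2 the share of productive clonotypes was 9.98 percentage points higher among balanced clonotypes, against 0.627 to 3.25 points in the other 5 mice. In KO replicate 3, whose mLN library held 2488 UMIs, the TRBV13 family was 15.3 points more frequent among balanced clonotypes, against −2.76 to 3.17 points in the others.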

How the results depend on the processing

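The direction reversed in 5 of 102 recomputations of the genotype differences, whose p could not pass 0.05 by design, and in 9 of 154 of the differences within mice. The cause of a change was not tested. The total of 668 balanced clonotypes was 1115 at a limit of 0.05% and 332 at 0.2%, and lay between 468 and 706 under the other alternatives. The genotype difference in the mLN share reversed from 2.79 to −0.0406 points at 0.05% and to −10.2 points with a ratio below 2, and ranged from −1.22 to 5.74 points when a mouse was left out (reversed without WT replicate 4). The productive difference was −0.161 points at 0.2%. The TRBV13 difference became −1.01 points at 0.05%, −0.326 points below 2 times and −0.994 points against other clonotypes of mean 0.1% or more. The TRBJ2 difference became −1.35 points against the latter and −0.122 points against concentrated clonotypes, and ranged from −0.297 to 1.55 points when a mouse was left out (reversed without WT replicate 1 or KO replicate 2). The convergent difference was −0.513 points without clonotypes of 1 UMI.

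WT and KO share replicate numbers 1 and 3, but these are different mice. Deviations in V usage of same-numbered mice correlated at −0.486 and 0.0547. Such correlations cannot show whether same-numbered mice were handled together, so whether the numbers pair them is not known. With the replicate block over these 2 numbers the mLN share differed by −2.58 points and CDR3 length by 0.0320 nt, both opposite to the unblocked sign, and the other 4 measures kept theirs. With no replicate block for the mouse, balanced and other values were compared as if they came from separate animals. The adjusted p of the exact permutation tests then fell to 0.0346 for productive clonotypes (3.20 points) and for presence in another mouse by nucleotide (31.3 points) and amino acid sequence (28.0 points). This version ignores that both values come from 1 mouse, so no conclusion is drawn from it. The 0.1% limit was 3 UMIs in KO replicate 3 mLN. At 2488 UMIs in every library that mouse had the fewest members, 60.5 against 91.8 to 122. Such draws equalize the UMIs only, not the cells or RNA behind a library, whose part was not tested.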
